A study of Mus musculus with 80 samples.

Results

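The Gabarap and LC3 genes encode the mammalian homologues of yeast Atg8, and 5 of them were read here by symbol: Gabarapl1, Gabarap, Gabarapl2, Map1lc3a and Map1lc3b. All 5 had a row among the 24508 gene symbols of each expression table, and all 5 passed the filter on low values, a mean of at least 1 FPKM over the 4 libraries of a table, in every table. The family was chosen by the day 0 RNA FPKM of Gabarapl1, which was low in Mll2 knockout (KO) stem cells, so the day 0 RNA differences of its members are given as a description with no test.

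Of the 80 samples in the series, 20 were used: 16 RNA-seq libraries at days 0, 3, 6 and 9 and 4 PRO-seq libraries, with 2 KO and 2 wild-type (WT) libraries in each of the 5 tables. KO and WT cells came from the same mouse embryonic stem cell line, Mll2F/F:CreERT2/+ on a C57Bl/6 background, which was kept on gelatin without feeder cells in serum and LIF. Both genotypes thus carry the floxed Mll2 alleles and the tamoxifen-inducible Cre, KO cells were given 4-hydroxytamoxifen for 96 h to delete Mll2 (gene symbol Kmt2b), and WT cells were given carrier, so deletion and drug cannot be told apart. Hanging-drop embryoid bodies were grown from them, and day 0 stands for the end of the drug treatment, although the labels call the day 0 RNA samples embryoid bodies too. PRO-seq, a nuclear run-on that labels the RNA of engaged polymerase, was done on stem cells after the same 96 h, with Drosophila S2 nuclei added. Whether replicates came from separate cultures is not stated in the labels, and p-values therefore cover the spread among these libraries, possibly a technical one.

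Autophagy delivers cytoplasm, organelles and protein aggregates to the lysosome in a double-membraned vesicle. Atg4 proteases trim the C terminus of GABARAP and LC3 proteins, and an Atg7, Atg3 and Atg5-Atg12-Atg16l1 machinery joins them to phosphatidylethanolamine in the growing membrane, where they hold cargo receptors and help the vesicle close and fuse. MLL2 is a histone methyltransferase that places H3K4me3 at CpG-rich promoters and holds a CXXC domain that binds unmethylated CG dinucleotides.

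Because of that domain, the 250 bases before the RefSeq start of Gabarapl1 and of its nearest match by CG count, Gabarapl2, are shown (RefSeq, GRCm38.p6, plus strand, 5′ to 3′, chr6:129532942-129533191 and chr8:111940453-111940702), with every CG in capitals.
Gabarapl1: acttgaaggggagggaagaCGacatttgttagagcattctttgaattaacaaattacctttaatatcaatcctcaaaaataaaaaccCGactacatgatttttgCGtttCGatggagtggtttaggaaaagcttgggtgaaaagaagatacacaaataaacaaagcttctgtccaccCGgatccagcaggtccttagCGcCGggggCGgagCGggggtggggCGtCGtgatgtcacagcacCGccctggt
Gabarapl2: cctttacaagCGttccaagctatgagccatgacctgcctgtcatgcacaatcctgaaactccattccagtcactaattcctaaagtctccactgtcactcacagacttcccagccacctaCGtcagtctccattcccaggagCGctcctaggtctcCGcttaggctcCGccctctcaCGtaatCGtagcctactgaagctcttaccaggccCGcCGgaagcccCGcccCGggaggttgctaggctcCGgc
Both windows held 12 CG dinucleotides, against a median of 6 over 32851 mouse promoter windows of the same length. The same window held 6 in Gabarap and 30 in Map1lc3b, and these 4 members were the ones matched in the RefSeq table. The base composition was 46.8% G and C in Gabarapl1, 46.4% in Gabarap, 57.2% in Gabarapl2 and 69.6% in Map1lc3b, against a median of 52.4%. The GC box GGGCGG, searched on both strands, occurred 2 times in Gabarapl1, 2 times in Gabarapl2, 1 time in Map1lc3b and 0 times in Gabarap, and 32.7% of all windows held it. None of the 4 windows held, on either strand, the E-box letters CACGTG (in 6.02% of all windows), the forkhead letters GTAAACA (in 3.17%), the TATA box letters TATAAA (in 12.4%) or the cAMP response letters TGACGTCA (in 1.55%). Only these exact letters were searched, so variant forms of the motifs were not counted. Gabarapl1 and Gabarapl2 thus had equal CG counts and equal numbers of GC boxes in this window.

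Gabarapl1 encodes the GABARAP-like member that binds microtubules and takes part in late steps of vesicle formation. At day 0 its RNA level was 1.20 and 1.97 FPKM (fragments per kilobase of transcript, scaled for depth) in KO cells, against 11.1 and 12.1 FPKM in WT cells. Recovered from the FPKM steps, these levels rested on 64 and 106 reads in KO cells and 639 and 658 reads in WT cells. Both KO libraries lay far below both WT libraries, a lack of overlap that 20.5% of all tested genes shared, and the KO mean was 13.7% of the WT mean. This was a difference of -2.30 on the log2(FPKM + 1) scale that stood in place 6 of 11318 genes ordered from the most lowered. This is the value that chose the family, so nothing is read from it.

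The lower Gabarapl1 RNA of KO cells was also measured in the later embryoid bodies, in libraries the choice did not use. At day 3 Gabarapl1 had 5.30 and 4.56 FPKM in KO cells, against 20.4 and 22.3 FPKM in WT cells. At day 6 it had 5.85 and 4.52 FPKM in KO cells, against 23.6 and 23.7 FPKM in WT cells. At day 9 it had 10.3 and 6.36 FPKM in KO cells, against 23.0 and 24.9 FPKM in WT cells. Both KO libraries were below both WT libraries on each day, as for 34.9%, 30.7% and 26.3% of all tested genes at days 3, 6 and 9, and the day 9 KO pair was the most spread.

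In limma's test across all genes, Gabarapl1 fell on all 3 days. The log2 difference was -1.92 at day 3 (SE 0.10, 95% interval -2.16 to -1.67, adjusted p = 0.00269), with KO at 23.1% of WT. It was -2.01 at day 6 (SE 0.12, 95% interval -2.30 to -1.71, adjusted p = 0.00139), with KO at 21.9% of WT. It was -1.45 at day 9 (SE 0.20, 95% interval -1.94 to -0.96, adjusted p = 0.0170), with KO at 34.8% of WT, and with no filter on low values the day 9 call was lost (adjusted p = 0.0985). Of the 5 members, Gabarapl1 alone was called lower at an adjusted p under 0.05, beside 11.5%, 7.92% and 3.52% of all tested genes called lower at days 3, 6 and 9. By size of the difference it stood in place 12, 12 and 73 from the most lowered gene on those days.

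In PRO-seq, Gabarapl1 had 1.48 and 0.881 FPKM in KO cells, against 4.86 and 3.43 FPKM in WT cells. These levels rested on 46 and 30 reads in KO cells and 174 and 104 reads in WT cells, and in the KO libraries no other member had as few. The KO libraries were again both below the WT libraries, as for 22.3% of all tested genes, and the KO mean was 28.5% of WT. The difference in engaged polymerase signal was -1.24 on the log2(FPKM + 1) scale (SE 0.20, 95% interval -1.72 to -0.75, limma adjusted p = 0.0498), and 0.832% of 14535 tested genes were called lower. The call was lost when any 1 of the 4 libraries was left out, where the adjusted p ranged over 0.0596 to 0.122 and the difference over -1.44 to -1.04.

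**Figure D1:**
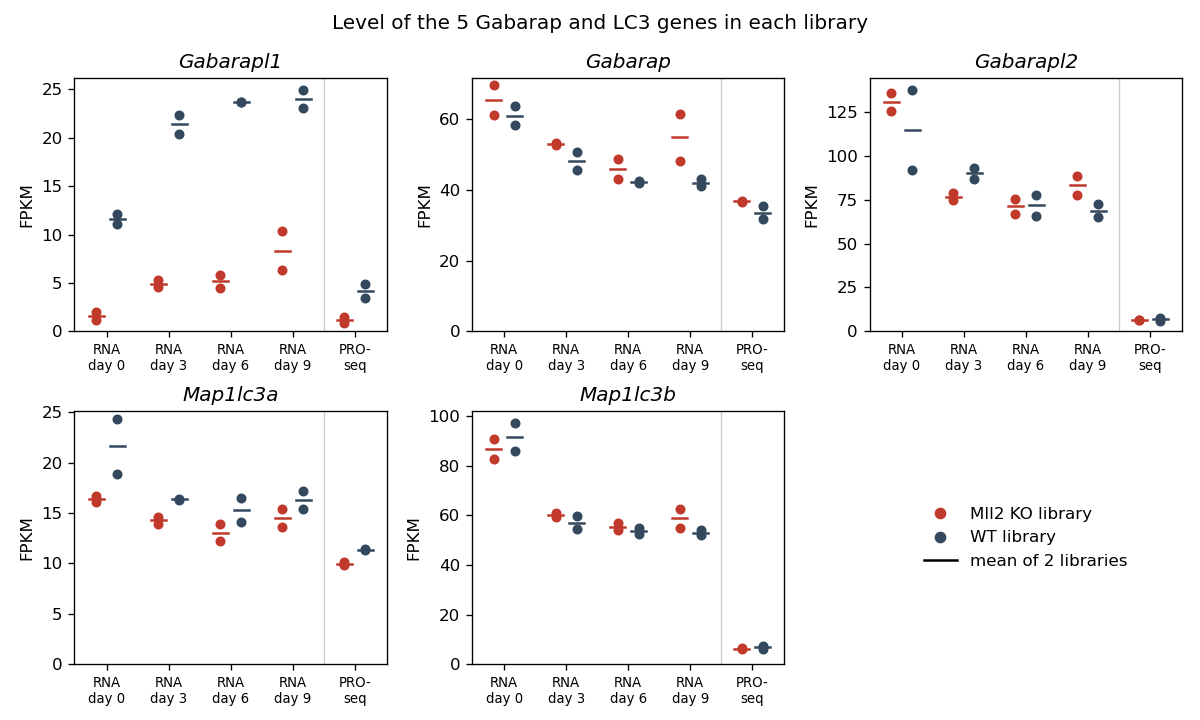
FPKM (vertical axes, each starting at 0) of the 5 genes in each KO (red, left) and WT (dark, right) library of the 4 RNA tables and of PRO-seq, with a bar at the mean of 2 libraries. For Gabarapl1 the KO points lie below the WT points in all 5 tables, from 1.20 and 1.97 against 11.1 and 12.1 FPKM at day 0 to 10.3 and 6.36 against 23.0 and 24.9 FPKM at day 9. Those of Map1lc3a do so too, by less, and the other genes' points stand apart in some tables and overlap in others. Of all tested genes, 20.5%, 34.9%, 30.7% and 26.3% had KO below WT without overlap at days 0, 3, 6 and 9, and 22.3% in PRO-seq.

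Within each genotype the Gabarapl1 level was higher in embryoid bodies than in stem cells: the KO mean was 1.59 ± 0.545 FPKM at day 0 and 8.34 ± 2.80 FPKM at day 9, and the WT mean was 11.6 ± 0.676 FPKM at day 0 and 24.0 ± 1.34 FPKM at day 9 (SD, n = 2 each). Each day's table was normalized separately, so this ordering of days is a description. The KO level at day 9 stayed below the WT level at day 0.

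Whether the KO effect on Gabarapl1 differed between days was tested in 1 limma model over the 16 RNA libraries and 11368 genes. The day 9 effect minus the day 3 effect was 0.47 (SE 0.27, 95% interval -0.11 to 1.04, adjusted p = 0.567). The day 9 effect minus the day 6 effect was 0.55 (95% interval -0.02 to 1.13, adjusted p = 0.982), and the day 6 effect minus the day 3 effect was -0.09 (95% interval -0.67 to 0.49, adjusted p = 1.00). None passed, and the intervals of the day 9 contrasts leave room for a smaller KO effect at day 9 by as much as 1.04 or 1.13 on the log2 scale. Of all genes, 0.141% were called for day 9 minus day 3, and 0.0% for the other two, where 275 (day 6 minus day 3) and 578 (day 9 minus day 6) genes had an unadjusted p under 0.05.

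The 4 other members were not called in any tested table, beside 21.2%, 13.3% and 5.46% of all genes called in either direction at days 3, 6 and 9 and 1.5% in PRO-seq. Their log2 differences ranged from -0.23 to 0.14 at day 3, from -0.21 to 0.12 at day 6, from -0.16 to 0.37 at day 9 and from -0.17 to 0.13 in PRO-seq. Their medians were -0.05, 0.02, 0.21 and -0.06 in that order, beside -0.01, 0.01, 0.02 and 0.01 over all tested genes. At day 0 they lay between -0.37 and 0.21.

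Gabarap is the founding member, first found as a protein bound to GABA-A receptors, and shares its subfamily with Gabarapl1. Its RNA level at day 0 was 61.1 and 69.5 FPKM in KO cells, against 63.6 and 58.1 FPKM in WT cells. At day 3 it was 53.2 and 52.6 FPKM in KO cells, against 50.5 and 45.6 FPKM in WT cells. The genotypes overlapped at day 0, and at day 3 both KO libraries were slightly above both WT libraries. At day 6 the level was 48.6 and 43.1 FPKM in KO cells, against 41.8 and 42.5 FPKM in WT cells. At day 9 it was 61.5 and 48.1 FPKM in KO cells, against 42.9 and 41.1 FPKM in WT cells. In PRO-seq it was 36.5 and 36.9 FPKM in KO cells, against 31.7 and 35.3 FPKM in WT cells. KO stood above WT without overlap in these 3 tables too, as did 33.1%, 31.2%, 30.6% and 26.3% of all tested genes at days 3, 6 and 9 and in PRO-seq. The differences were 0.14, 0.12, 0.37 and 0.13 on the log2 scale, with limma adjusted p = 0.227, 0.394, 0.189 and 0.601. The day 9 difference had a 95% interval of 0.02 to 0.71 and rested on the first KO library: without the second KO library it was 0.54, at an adjusted p of 0.0400, and across the libraries left out it ranged from 0.19 to 0.54.

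Gabarapl2, also called GATE-16 and known for a role in transport within the Golgi as well as autophagy, had the highest RNA level of the 5 per length in each of the 16 RNA libraries. At day 0 it had 135 and 125 FPKM in KO cells, against 137 and 91.8 FPKM in WT cells. At day 3 it had 74.7 and 78.6 FPKM in KO cells, against 87.0 and 93.2 FPKM in WT cells. The day 0 libraries overlapped, and at day 3 both KO libraries were below both WT libraries, as for 34.9% of all tested genes. At day 6 it had 75.6 and 66.9 FPKM in KO cells, against 65.9 and 77.8 FPKM in WT cells. At day 9 it had 88.6 and 77.9 FPKM in KO cells, against 65.3 and 72.3 FPKM in WT cells. In PRO-seq it had 6.68 and 6.43 FPKM in KO cells, against 7.83 and 5.90 FPKM in WT cells. Day 6 and PRO-seq overlapped, while at day 9 KO was the higher genotype in both libraries, as for 30.6% of all tested genes. The log2 differences were -0.23 at day 3 (95% interval -0.40 to -0.06, adjusted p = 0.0643), -0.01 at day 6 (adjusted p = 0.959), 0.27 at day 9 (adjusted p = 0.254) and -0.05 in PRO-seq (adjusted p = 0.901). The change of sign between days 3 and 9, 0.50 (SE 0.22, 95% interval 0.02 to 0.98), did not pass over all genes (adjusted p = 0.440).

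Map1lc3a encodes LC3A, one of the LC3 proteins used to mark autophagosomes. At day 0 it had 16.1 and 16.7 FPKM in KO cells, against 24.3 and 18.9 FPKM in WT cells. At day 3 it had 14.0 and 14.6 FPKM in KO cells, against 16.3 and 16.4 FPKM in WT cells. KO was below WT in both. At day 6 it had 12.2 and 13.9 FPKM in KO cells, against 14.1 and 16.5 FPKM in WT cells. At day 9 it had 13.6 and 15.4 FPKM in KO cells, against 15.4 and 17.2 FPKM in WT cells, the highest KO value lying just under the lowest WT value. In PRO-seq it had 10.1 and 9.86 FPKM in KO cells, against 11.3 and 11.4 FPKM in WT cells. Map1lc3a was thus the paralogue whose KO libraries were below the WT libraries in all 5 tables, as were 20.5%, 34.9%, 30.7% and 26.3% of all genes at days 0, 3, 6 and 9 and 22.3% in PRO-seq. The differences were -0.19 at day 3, -0.21 at day 6, -0.16 at day 9 and -0.17 in PRO-seq, with adjusted p = 0.121, 0.246, 0.476 and 0.434. The lower ends of their 95% intervals were -0.37, -0.49, -0.46 and -0.40.

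Map1lc3b encodes LC3B, whose lipid-joined form is the usual readout of autophagosomes. At day 0 it had 82.8 and 90.9 FPKM in KO cells, against 97.3 and 86.1 FPKM in WT cells. At day 3 it had 59.5 and 61.1 FPKM in KO cells, against 59.8 and 54.4 FPKM in WT cells. Both tables overlapped. At day 6 it had 54.1 and 56.8 FPKM in KO cells, against 52.6 and 54.9 FPKM in WT cells. At day 9 it had 62.7 and 55.1 FPKM in KO cells, against 52.1 and 53.9 FPKM in WT cells. In PRO-seq it had 6.09 and 6.69 FPKM in KO cells, against 7.35 and 6.31 FPKM in WT cells. The genotypes overlapped at day 6 and in PRO-seq and stood apart at day 9, where KO was higher, as for 30.6% of all tested genes. The differences were 0.08, 0.04, 0.15 and -0.08 at days 3, 6 and 9 and in PRO-seq, with adjusted p = 0.477, 0.721, 0.499 and 0.775. In RefSeq, Map1lc3b overlaps Zcchc14, and since the strand setting of the counting is not given in the sources used here, its values are uncertain to the extent that reads were shared.

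**Figure D2:**
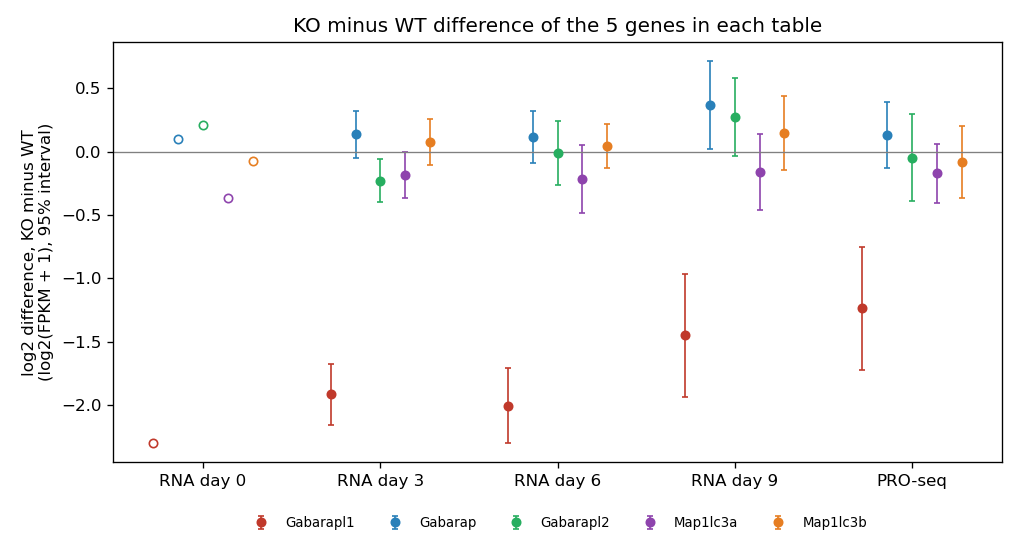
KO minus WT difference on the log2(FPKM + 1) scale (vertical axis) of the 5 genes in each table, with 95% intervals of the limma fit for the 4 tested tables; open circles at day 0 carry no interval because that contrast chose the family. Gabarapl1 lies between -2.01 and -1.24 in the tested tables, and the other 4 genes lie between -0.23 and 0.37.

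Set against each other within a library, the 5 members shifted in proportion. Gabarapl1 made up 0.405% and 0.648% of the summed FPKM of the family in KO cells at day 0, against 3.34% and 4.53% in WT cells. Its share was 2.56% and 2.16% in KO cells at day 3, against 8.72% and 9.62% in WT cells. By day 9 it was 4.36% and 3.14% in KO cells, against 11.6% and 11.9% in WT cells. At day 6 it was 2.98% and 2.44% in KO cells, against 11.9% and 11.0% in WT cells. The KO shares were thus below the WT shares at days 3, 6 and 9. For FPKM of single genes the same lack of overlap held for 34.9%, 30.7% and 26.3% of all tested genes. The day 0 shares hold the value that chose the family, so nothing is read from them. The summed RNA level of the 4 other members was 201 and 207 FPKM in KO cells at day 3, against 214 and 210 FPKM in WT cells. It was 226 and 196 FPKM in KO cells at day 9, against 176 and 185 FPKM in WT cells. KO was thus lower at day 3 and higher at day 9 in both libraries, as for 34.9% and 30.6% of all tested genes taken singly.

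The family's FPKM was split differently between its genes in PRO-seq than in RNA. The annotation used for counting was not found, so how reads along each gene were counted and scaled by length is unknown. A difference in counting and one in engaged polymerase cannot be told apart here, and these shares are a description. Gabarap took 59.9% and 60.7% of the family's PRO-seq FPKM in KO cells, against 50.3% and 56.6% in WT cells, while its share of the day 0 RNA was 20.6% and 22.8% in KO cells and 19.1% and 21.8% in WT cells. Gabarapl2 took 11.0% and 10.6% of the PRO-seq FPKM in KO cells and 12.4% and 9.47% in WT cells, and its share of the day 0 RNA was 45.7% and 41.2% in KO cells and 41.2% and 34.4% in WT cells. Gabarapl1 took 2.43% and 1.45% of the PRO-seq FPKM in KO cells, against 7.70% and 5.50% in WT cells. The order Gabarap first and Gabarapl2 well below it held in PRO-seq libraries of both genotypes, and Gabarapl2 stood above Gabarap in RNA libraries of both genotypes.

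**Figure D3:**
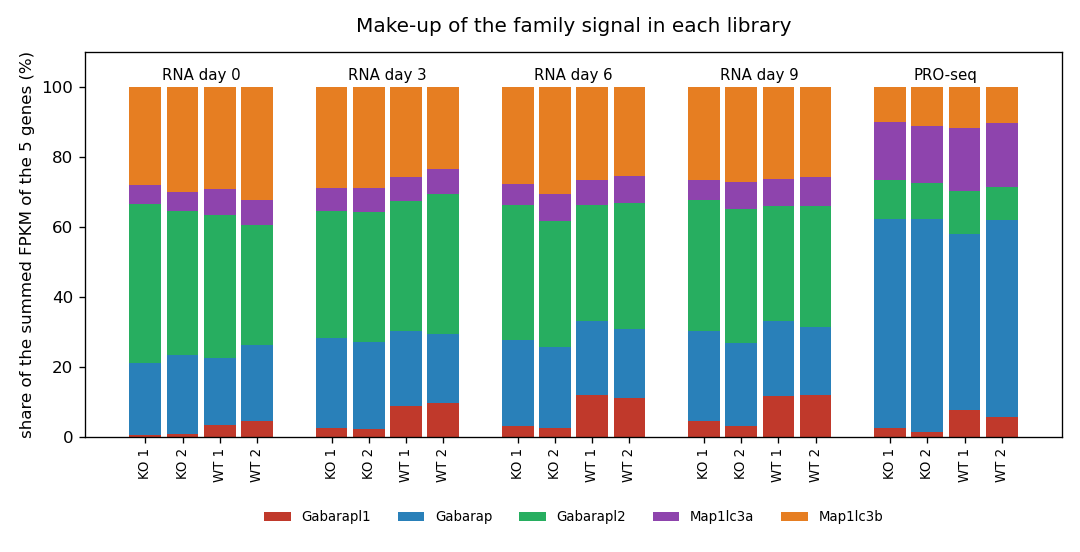
Share (%) of the summed FPKM of the 5 genes that each gene took in every library, KO left of WT within each table. The Gabarapl1 segment at the bottom is 0.405 to 4.36% in KO RNA libraries and 3.34 to 11.9% in WT RNA libraries, and Gabarap takes 50.3 to 60.7% of the signal in the PRO-seq libraries.

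The rest of the autophagy machinery was read from 65 genes on 7 lists by step, all of which had a row. At day 3, 5 of 61 tested genes were called lower and 6 higher in KO cells, 18.0% in all beside 21.2% of all tested genes. At day 6, 0 of 61 were called lower and 4 higher, 6.56% beside 13.3%. At day 9, 1 of 64 was called lower and 4 higher, 7.81% beside 5.46%, and the genes called higher were 6.25% beside 1.94%. The 1 called lower, Stx17, passed the filter only through its WT libraries. In PRO-seq, 0 of 61 were called beside 1.5% of all genes. The median log2 difference of the listed genes was -0.03, 0.01 and 0.04 at days 3, 6 and 9 and 0.06 in PRO-seq. The share of called genes was below that over all genes at days 3 and 6 and in PRO-seq and above it at day 9.

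The enzymes that mature and lipidate the family had 1 call lower and 1 higher among 10 tested at day 3. They had 0 of 10, 0 of 11 and 0 of 9 at days 6 and 9 and in PRO-seq. The day 3 share was 20%, beside 21.2% of all tested genes. Over all tested genes 13.3%, 5.46% and 1.5% were called at days 6 and 9 and in PRO-seq. Atg4c, a protease that trims Atg8 proteins, fell at day 3 to 2.51 and 2.61 FPKM in KO cells, against 3.83 and 4.55 FPKM in WT cells (log2 difference -0.54, adjusted p = 0.0266). Its relative Atg4a rose at day 3, with 5.48 and 4.92 FPKM in KO cells, against 3.66 and 3.21 FPKM in WT cells (0.48, adjusted p = 0.0308). These proteases thus moved in opposite directions on that day. Of 5 initiation genes, Atg13, the adaptor of the ULK kinase complex, was called lower at day 3 (-0.40, adjusted p = 0.0256). That was 20% of the list, again beside 21.2% of all tested genes. None of the 7 genes of the lipid kinase complex was called on any of the 3 days.

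Among 9 genes of membrane supply, Wdr45, which encodes the phosphoinositide-binding protein WIPI4, fell at day 3 (-0.77, adjusted p = 0.0218), and Atg9a, the lipid scramblase of the vesicles that seed the membrane, was called higher at day 3 (0.39, adjusted p = 0.0417) and at day 9, with 5.00 and 5.37 FPKM in KO cells, against 2.93 and 2.93 FPKM in WT cells at day 9 (0.65, adjusted p = 0.0434). Calls took 22.2% of the membrane supply list at day 3 and 11.1% at day 9. The cargo receptors had 1 of 14 called at day 3 (7.14%) and none at days 6 and 9. Over all tested genes 21.2%, 13.3% and 5.46% were called at days 3, 6 and 9.

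In the list for fusion and the lysosome, genes moved both ways. At days 3, 6 and 9, 18.2%, 9.09% and 16.7% of those tested were called, beside 21.2%, 13.3% and 5.46% of all tested genes. Vamp8, a SNARE of the autophagosome-lysosome fusion step, rose on all 3 days, by 1.11, 1.00 and 0.81 on the log2 scale (adjusted p = 0.0145, 0.0155 and 0.0291). Its level at day 3 was 18.6 and 12.6 FPKM in KO cells, against 6.30 and 6.87 FPKM in WT cells. Both KO libraries were above both WT libraries, as for 33.1% of all tested genes. Stx17, the autophagosome's own syntaxin and partner of Vamp8 in that step, was called lower at day 9, with 0.551 and 0.437 FPKM in KO cells, against 1.81 and 1.80 FPKM in WT cells (-0.91, adjusted p = 0.0339). Stx17 passed the filter at day 9 only through its WT libraries, so that call is a description. It was under the filter at days 3 and 6. At day 0 it had 0.421 and 0.423 FPKM in KO cells, against 2.16 and 2.39 FPKM in WT cells. Ctsl, the lysosomal protease cathepsin L, fell at day 3 (-0.90, adjusted p = 0.0222), when its level was 42.2 and 60.6 FPKM in KO cells and 88.2 and 103 FPKM in WT cells.

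The list of transcription factors that act on autophagy and lysosome genes had 3 of 5 tested genes called higher at day 3, 3 of 5 at day 6 and 2 of 5 at day 9, beside 9.75%, 5.4% and 1.94% of all tested genes called higher. Foxo1, a forkhead factor held back by insulin signalling, was called on all 3 days (0.59, 0.57 and 0.74, adjusted p = 0.0280, 0.0446 and 0.0434), and at day 9 it had 11.9 and 9.76 FPKM in KO cells, against 6.62 and 5.48 FPKM in WT cells. Tfeb, a regulator of lysosome genes, was called at days 3 and 6 (0.78 and 0.66, adjusted p = 0.0133 and 0.0220), when KO levels were 4.49 and 4.35, then 3.16 and 2.80 FPKM, against WT levels of 2.43 and 1.91, then 1.63 and 1.40 FPKM. Foxo3 was called at days 6 and 9 (0.37 and 0.82, adjusted p = 0.0488 and 0.0344). The list's medians were 0.46, 0.37 and 0.74 at days 3, 6 and 9, and 0.16 in PRO-seq, where 0 of 5 were called. Without WT library 1 or without WT library 2, 0 listed genes were called in either direction at days 3 and 6, and at day 9 the count was 1 without WT library 1 and 0 without WT library 2. Over all genes the calls also dropped in these fits, to 247 and 134 at day 3, 173 and 118 at day 6, and 305 and 154 at day 9, while the log2 difference of Tfeb at day 3 ranged over 0.66 to 1.03 across its alternatives and that of Tfe3 over 0.42 to 0.50. Gabarapl1 kept its call at days 3, 6 and 9 without any 1 library.

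**Figure D4:**
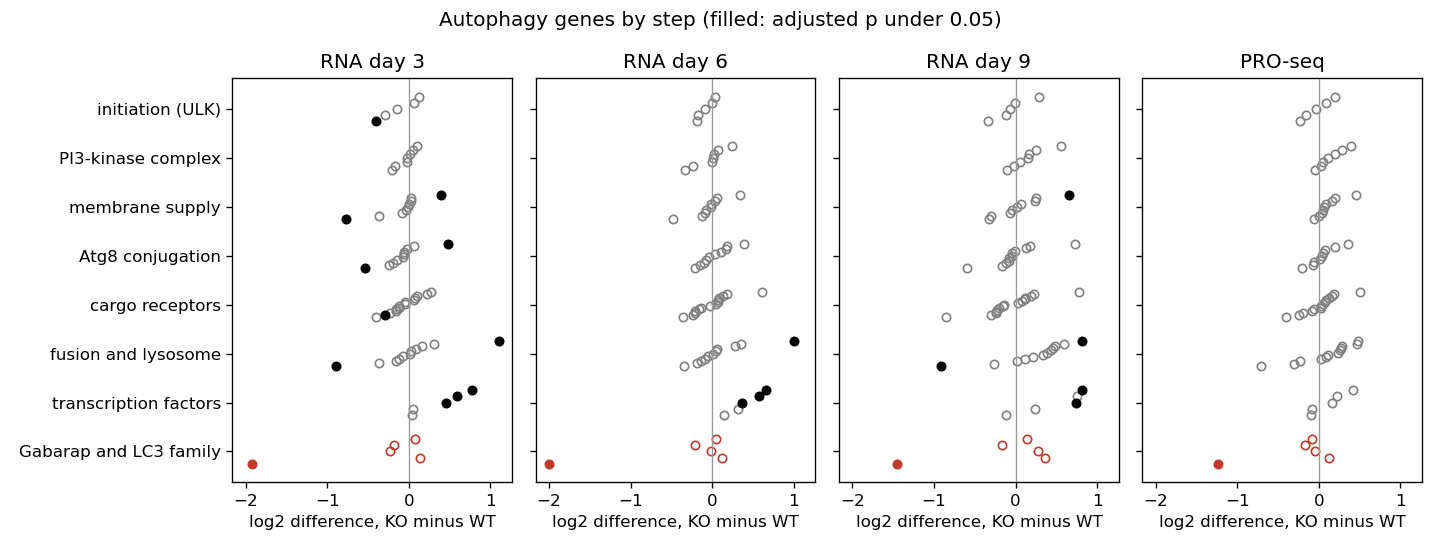
KO minus WT difference on the log2(FPKM + 1) scale (horizontal axis) of each tested autophagy gene, by step, in the 4 tested tables, with filled points at an adjusted p under 0.05. Gabarapl1, the filled red point in the bottom line, lies at -1.92, -2.01, -1.45 and -1.24, farther from 0 than every gene of the other lines, which reach 1.11.

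Genes whose pattern was most like that of Gabarapl1 were found by the Pearson correlation of log2(FPKM + 1), centred on each table's mean, over the 20 libraries and among 10192 genes. Among the 5 highest were Stk26 (r = 0.984), a serine/threonine kinase, Aldh5a1 (0.977), the mitochondrial succinate semialdehyde dehydrogenase, Gng10 (0.975), a G protein gamma subunit, and Ttll4 (0.971), a polyglutamylase of tubulin and other proteins. The libraries share their genotype contrast and their table scaling, and they include the day 0 libraries that chose the family, so these values describe likeness alone. Map1lc3a had r = 0.76 and stood in place 677, whereas the values were -0.07 for Map1lc3b, -0.08 for Gabarapl2 and -0.55 for Gabarap.

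Stk26 and Gng10 were nearest to Gabarapl1 in size among the genes named. The RNA level of Stk26 at day 0 was 0.869 and 1.54 FPKM in KO cells, against 7.42 and 9.80 FPKM in WT cells. At day 9 it was 3.40 and 3.08 FPKM in KO cells, against 11.9 and 14.3 FPKM in WT cells. KO was at 14.0% of WT at day 0 and 24.8% at day 9, where Gabarapl1 was at 13.7% and 34.8%. Nothing is read from the likeness at day 0, since the Gabarapl1 value there chose the family. Gng10 was at 11.1% of WT at day 0 and 16.4% at day 9, while Aldh5a1 and Ttll4 differed less, at 45.7% and 50.1% of WT at day 0.

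**Figure D5:**
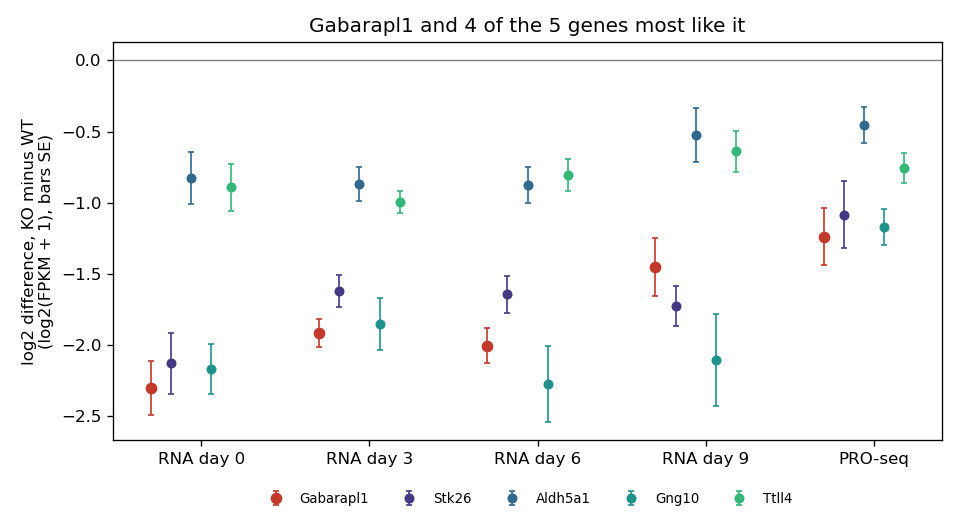
KO minus WT difference on the log2(FPKM + 1) scale (vertical axis, bars SE of the limma fit) of Gabarapl1 (red) and of 4 of the 5 genes most like it in the 5 tables. Stk26 and Gng10 lie near Gabarapl1, between -2.27 and -1.08, and Aldh5a1 and Ttll4 lie between -0.99 and -0.46. Since the genes were picked for this likeness, and the day 0 value of Gabarapl1 chose the family, the plot and its bars are a description.

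The neighbourhood of Gabarapl1 was largely silent. In the RefSeq gene order its protein-coding neighbours are Olr1 and Tmem52b before it and Klre1 and Klrd1 after it. Tmem52b, Klre1 and Klrd1 had 0 reads in every library, and Olr1 had at most 3 reads in 1 library. The lncRNA 1700101I11Rik overlaps Gabarapl1, and in PRO-seq it had 2 and 3 reads in KO cells, against 19 and 14 reads in WT cells. KO was thus below WT at this transcript as well, at 15.4% of the WT mean FPKM. In PRO-seq 22.3% of all tested genes had KO below WT without overlap. The lncRNA was under the filter there and was not tested. It had at most 2 reads in any RNA library, and reads of the overlapping stretch cannot be assigned to 1 of the 2 genes without the strand setting.

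The targeted gene and cell type markers were read in the same libraries. Kmt2b RNA was 6.67 and 7.27 FPKM in KO cells at day 3, against 14.9 and 17.1 FPKM in WT cells (adjusted p = 0.00464), and 8.41 and 7.88 FPKM in KO cells at day 6, against 16.4 and 14.3 FPKM in WT cells (adjusted p = 0.00762, and 0.0644 without WT library 1). At day 9 the KO libraries had 10.8 and 6.94 FPKM, against 15.5 and 13.3 FPKM in WT cells (adjusted p = 0.106), and the first KO library had more of both Kmt2b and Gabarapl1 (10.3 FPKM, against 6.36 FPKM in the second). At day 6 the first KO library also had more of both (Gabarapl1 at 5.85 FPKM, against 4.52 FPKM in the second). At day 3 the order was opposite, since the second KO library had more Kmt2b and less Gabarapl1 (4.56 FPKM, against 5.30 FPKM in the first). Whether remaining Kmt2b RNA bears on the Gabarapl1 level was not tested. At day 0 the genotypes overlapped in Kmt2b, with 9.46 and 9.49 FPKM in KO cells and 9.44 and 11.8 FPKM in WT cells. They also overlapped in PRO-seq, with 13.8 and 15.8 FPKM in KO cells and 11.9 and 13.9 FPKM in WT cells. Whole-gene values do not isolate the deleted part and so do not check the deletion.

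The 8 pluripotency markers, all past the filter in every table, summed to 7245 to 7563 FPKM in KO cells at day 0, against 8060 to 11676 FPKM in WT cells. At day 3 they summed to 3625 to 4964 FPKM in KO cells, against 6329 to 7280 FPKM in WT cells, with 6 of 8 called lower and 1 higher. At day 6 the sums were 3243 to 4261 FPKM in KO cells, against 5458 to 6321 FPKM in WT cells, with 5 called lower and 1 higher, and at day 9 none was called (2892 to 4569 FPKM in KO cells, 4136 to 5415 FPKM in WT cells). In PRO-seq none was called either. The sums there were 451 to 517 FPKM in KO cells, against 616 to 650 FPKM in WT cells, without overlap. Taken singly, 22.3% of all tested genes had KO below WT without overlap in PRO-seq. Over all tested genes, 11.5% were called lower and 9.75% higher at day 3, and 7.92% and 5.4% at day 6. In either direction 5.46% were called at day 9 and 1.5% in PRO-seq.

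Some markers of other cell types differed between the genotypes as well. Of 6 fibroblast markers 2 were tested at days 3 and 6, and both were called higher on both days. At day 9, 1 of 2 was called higher. On each of these days 4 of the 6 were under 1 FPKM in every library, so the sums rest mostly on the tested markers. Of all tested genes, 9.75%, 5.4% and 1.94% were called higher at days 3, 6 and 9. They summed to 12.6 to 16.5 FPKM in KO cells at day 3, against 4.21 to 4.62 FPKM in WT cells, and to 14.7 to 15.8 FPKM in KO cells at day 6, against 8.39 to 9.33 FPKM in WT cells. KO was higher without overlap on both days, as for 33.1% and 31.2% of all tested genes taken singly. At day 9 the ranges overlapped (14.7 to 18.6 FPKM in KO cells, 11.4 to 18.2 FPKM in WT cells). Postn was at 0 in every library at day 0 and in PRO-seq.

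All 7 endoderm markers were under 1 FPKM at day 0. At day 6 they summed to 4.87 to 18.4 FPKM in KO cells, against 0.454 to 0.908 FPKM in WT cells, without overlap. The 1 tested marker was called higher. Since even the WT sums were under 1 FPKM, that marker passed the filter only through its KO libraries, and its call is a description. Over all tested genes at day 6, 31.2% had KO above WT without overlap and 5.4% were called higher. At day 9 the endoderm markers summed to 10.5 to 23.9 FPKM in KO cells, against 6.34 to 15.0 FPKM in WT cells. Of 5 tested markers 1 was called higher, beside 1.94% of all tested genes. The sum of 5 trophoblast markers was lower in KO cells at day 3 (11.4 to 13.4 FPKM in KO cells, 16.5 to 18.2 FPKM in WT cells). There 4 of the 5 were under 1 FPKM in every library, so the sum rests mostly on 1 gene. The 1 tested marker was called lower, beside 11.5% of all tested genes. At day 9, 1 of 2 tested was called lower (17.2 to 17.9 FPKM in KO cells, 34.6 to 35.0 FPKM in WT cells), beside 3.52% of all tested genes. In PRO-seq 1 of 2 was called lower (12.6 to 13.0 FPKM in KO cells, 18.9 to 19.8 FPKM in WT cells), beside 0.832%. Of primitive streak and mesoderm markers 1 of 2 tested was called lower at day 3. Of neural markers 2 of 5 were called lower and 1 higher at day 3, and 1 each way at day 6. Over all tested genes, 11.5% were called lower and 9.75% higher at day 3, and 7.92% and 5.4% at day 6. In such bulk samples fewer cells of a type and less RNA per cell cannot be told apart, and the part of cell composition in the Gabarapl1 difference was not tested.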

How the data were processed

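RNA-seq and PRO-seq values are the FPKM tables the authors deposited, 1 per RNA day and 1 for PRO-seq. Per the submitters' processing notes, the tools were TopHat and DESeq2 on mm9 for RNA, and for PRO-seq cutadapt 1.14, Trimmomatic 0.33, Bowtie 1.1.2 and DESeq2, with the builds mm9 and dm3. The strand setting and annotation used for counting were not found in the sources used here. Reads on genes were recovered from the FPKM steps (100% of values whole, tolerance 0.01) and came to 29018994 to 34476635 in the RNA libraries and 16328491 to 20048187 in the PRO-seq libraries, where 10 genes took 45.9 to 54.2% of the reads.

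Each table was fitted with limma 3.58.1 (R 4.3.3, trend on mean level, 2-sided, Benjamini-Hochberg over all tested genes) on log2(FPKM + 1), leaving out genes whose mean was under 1 FPKM. The scale understates differences at low levels. Calls were made at an adjusted p under 0.05. The test was tested on simulated data. Members, gene lists and tests were chosen with earlier results of these data known. Named beside the members were Kmt2b, at most 4 called autophagy genes in each direction per comparison, and the 5 genes most like Gabarapl1, of which 1 is not reported here. Alternatives were another pseudocount (0.1), no filter or one at 5 FPKM, centring on the median, voom on recovered reads, a spread pooled over the RNA libraries, a replicate block and leaving out each library. The other 60 samples were not used here. Promoter sequences come from RefSeq (GRCm38.p6), and gene order from RefSeq on a build other than the tables' mm9.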

Additional observations from a re-analysis of the deposited data

Results flagged for a closer look

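The KO effect on Gabarapl2 changed by 0.50 on the log2 scale between day 3 and day 9. Both KO libraries were below both WT libraries at day 3, as for 34.9% of all tested genes. Both were above them at day 9, as for 30.6%. Tested as a difference between the days in limma over 11368 genes, the change had an adjusted p of 0.440.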

How the results depend on the processing

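Gabarapl1 was lower in KO cells under all 42 alternatives over the 4 tested tables, and 35 kept the call. The call was lost at day 9 with no filter on low values (-1.45, adjusted p = 0.0985), and in PRO-seq with no filter (-1.24, adjusted p = 0.0841), with a pseudocount of 0.1 (-1.75, adjusted p = 0.0560) and without any 1 library (-1.44 to -1.04). With 1 library left out, the lone library of its genotype was assumed to vary like the others. A filter at 5 FPKM left Gabarapl1 untested in PRO-seq. Leaving out 1 library gave -2.01 to -1.83 at day 3, -2.16 to -1.85 at day 6, and -1.76 to -1.14 at day 9. The untested day 0 difference moved to -2.83 with a pseudocount of 0.1 and to -2.90 with voom. The day 6 minus day 3 contrast of Gabarapl1 changed sign when a library was left out, at 0.0018 without the first day 3 KO library and 0.067 without the second day 6 KO library, over a range of -0.24 to 0.067.

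The 4 other members were not called under 170 of their 172 alternatives, and the exceptions were Gabarapl2 at day 3 with the block and Gabarap at day 9 without the second KO library (0.54, adjusted p = 0.0400). Centring libraries on their median turned the sign of Gabarapl2 at day 6 to 0.026 and of the Map1lc3a contrast of day 9 minus day 3 to -0.0049. Leaving out 1 library turned the sign of small differences. The ranges were -0.076 to 0.50 for Gabarapl2 and -0.16 to 0.010 for Map1lc3b at day 0, -0.13 to 0.11 for Gabarapl2 at day 6, and -0.23 to 0.13 for Gabarapl2 and -0.18 to 0.014 for Map1lc3b in PRO-seq. For day 6 minus day 3 they were -0.11 to 0.063 for Gabarap, -0.13 to 0.077 for Map1lc3a and -0.10 to 0.034 for Map1lc3b. For day 9 minus day 3 they were -0.059 to 0.11 for Map1lc3a and -0.022 to 0.16 for Map1lc3b, and for day 9 minus day 6 -0.052 to 0.16 for Map1lc3a. Kmt2b at day 0 ranged over -0.29 to 0.0049.

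Genes called over each table moved by over 1.5 times under several settings. With no filter the counts were 0, 959, 333, 0 and 0 at days 0, 3, 6 and 9 and in PRO-seq, against 376, 2356, 1490, 623 and 218, and 2942, 5703, 4811, 3945 and 3527 genes had an unadjusted p under 0.05 there in limma. With a filter at 5 FPKM they were 72, 1425, 894, 346 and 68. There 7870, 7707, 7749, 7864 and 10007 genes were tested, against 11318, 11088, 11184, 11420 and 14535. The pooled spread gave 1068 at day 0 and 1765 at day 9, and voom gave 460, 2646, 1789, 603 and 850. Leaving out 1 library gave 0 to 526, 134 to 3077, 118 to 2645, 154 to 1120 and 0 to 31. For day 9 minus day 3 the count of 16 became 31 with no filter and 9 at 5 FPKM, and 3 to 29 without 1 library. For day 6 minus day 3 it was 1 with no filter. What moved these counts was not tested.

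Replicate numbers are shared by KO and WT in the labels, but with 2 pairs a table they were taken as numbers only. The deviations of same-numbered libraries correlated at 0.57, 0.36, 0.25 and 0.31 in the RNA tables and 0.36 in PRO-seq. With the replicate block, 2007, 3667, 2537, 1398 and 1290 genes were called in the 5 tables and 141 and 2 genes for day 9 minus day 3 and minus day 6. Under the block Gabarapl1 was called in all 4 tested tables (adjusted p = 0.00118, 0.000713, 0.00827 and 0.00644), and Gabarapl2 at day 3 passed (-0.23, adjusted p = 0.0215). Depth limits PRO-seq most, where Gabarapl1 rested on 30 to 174 reads.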
